A study of Mus musculus with 6 samples.

Results

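RNA levels of 64 splicing genes were measured in mouse fetal liver erythroblasts, cells that still have a nucleus and will become red blood cells, with and without carbon dots (CDs), carbon nanoparticles prepared from the plant Codonopsis pilosula. The cells came from C57BL/6J mice, lacked the TER119 antigen of later erythroid cells when they were purified, and grew with erythropoietin (Epo), the hormone that drives red cell production. Of the 6 libraries, 3 are of untreated cells and 3 of cells given 1 ug/ml CDs for 30 h, and all 6 share strain, tissue, sort and medium. They are called untreated 1 to 3 and CDs 1 to 3, as numbered in the labels, which leave unsaid if replicates are separate animals or cultures. P-values therefore measure the spread among these samples alone, and part of it may be technical.

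The genes are the proteins of the spliceosome core and the RNA-binding splicing factors that share a family symbol: Snrp (Sm and U1/U2 snRNP proteins), Lsm, Sf3a and Sf3b, Srsf and Hnrnp. Among 17691 genes in the table, 66 symbols matched, 1 pseudogene name was dropped, and 1 gene, Srsf12, did not reach 10 counts in 3 libraries. The remaining 64 consist of 12 Sm and U1/U2 snRNP genes, 13 LSm genes, 9 SF3 genes, 10 SR genes and 20 hnRNP genes. Srsf12 had 1 count in untreated 3, 1 in CDs 3 and 0 in the other 4 libraries. Just inside the minimum was Snrpn, with a lowest count of 18.1, followed by Lsm10 with 154. All 64 were among the 12283 genes that were tested, and they lie on 18 chromosomes in the RefSeq annotation of GRCm38.p6.

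Introns are removed by the spliceosome, which is built from small nuclear ribonucleoproteins (snRNPs), each a small nuclear RNA wrapped by proteins. A ring of Sm proteins closes around the U1, U2, U4 and U5 RNAs, the related LSm2-8 ring binds the end of U6 RNA, and the SF3A and SF3B complexes belong to the U2 snRNP and help it grip the branch point. SR proteins mostly promote the use of the exons that they bind, hnRNPs package the nascent RNA and often oppose them, and regulated splicing accompanies the late steps of red cell formation. In people, mutations of SF3B1 are known for myelodysplastic syndromes with ring sideroblasts, erythroblasts that hold iron-laden mitochondria.

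The libraries held 17695997 to 20066581 expected counts each. All 10 erythroid markers checked, among them Gata1, Klf1, Epor and Slc4a1, were detected in every library, and together they took 5.84% to 7.07% of the counts of a library. Klf1, an erythroid transcription factor, measured 735, 689 and 388 CPM (counts scaled to library size) untreated and 694, 590.0 and 285 CPM treated, and Epor, the Epo receptor, 300, 268 and 163 CPM against 280.0, 235 and 132 CPM. Both were lower with CDs in all 3 numbered pairs and lowest in number 3, as many splicing genes were, and their part in the levels of those genes was not tested. The largest differences between libraries ran mainly along the replicate numbers. The first principal component held 88.7% of the variance and placed untreated 1 to 3 at -87.1, -46.2 and 74.6, and the treated libraries at -52.0, 14.9 and 95.7, so the treated library lay higher in each numbered pair. Libraries with the same number deviated together (correlations of 0.91, 0.34 and 0.94 over all genes tested), so same-numbered libraries were treated as pairs.

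Nearly all of the splicing genes were slightly lower with CDs, and none passed the test between the groups that leaves the pairing out. In edgeR's quasi-likelihood test without a replicate block, 0 of 64 had an adjusted p under 0.05, against 0 of all 12283 genes (0.0%), and the smallest adjusted p of a splicing gene was 0.994. None had an unadjusted p under 0.05, where 127 of all genes did (1.03%). DESeq2 and limma-voom without a block also called 0 of the 64 (14 and 0 of all genes). Without a block the spread between replicate numbers enters the standard errors (SE), which were worked back from the test statistic. Their median was 0.22 on the log2 scale against 0.06 with the block. In the fit without a block, 51 of the 64 differences were smaller than their own SE. The count of 0 therefore says little about differences of the size seen here. The fitted log2 fold change lay below 0 for 62 of 64, where 48.1% of all genes lay below 0, with a median of -0.15 against 0.01 over all genes. Within the numbered pairs, 53 of 64 (82.8%) were lower in the CDs library of all 3 pairs, a pattern found in 26.2% of all genes, and 0 were higher in all 3 (30.2% of all genes). The pair medians were -0.12, -0.15 and -0.18 on the log2 scale.

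The groups themselves overlapped for 62 of the 64 genes. The CDs libraries lay wholly below the untreated ones for 2 genes, Srsf4 and Srsf5, where 2.33% of all genes did so, and wholly above for 0 (2.37%). A single library could move the whole set: with CDs 3 left out the median of the 64 became 0.0045 with 30 genes below 0, without untreated 1 it was -0.05 and without untreated 3 it was -0.27. Leaving out both libraries of one number kept the pairs whole, and the median stayed between -0.16 and -0.18, with 61 to 63 genes below 0. The share of all counts that fell on the 64 genes was 1.66%, 1.60% and 1.26% in the untreated libraries and 1.58%, 1.46% and 1.14% in the treated ones.

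With the replicate number as a block, edgeR still gave no splicing gene an adjusted p under 0.05 (5 of all genes, 0.0407%). At an adjusted p under 0.1, 9 splicing genes were lower with CDs and 0 higher, while 3.13% of all genes were lower and 5.17% higher at that level. These 9 were Snrpg, Snrpf, Snrpd2, Snrpd3, Snrpe, Lsm3, Lsm4, Lsm2 and Hnrnpa1, of which 8 encode ring proteins. An unadjusted p under 0.05 was reached by 27, all lower, beside 11.9% of all genes on the lower side. DESeq2 with the block was the only one of 20 fits to call any, and it called 7 as lower with CDs (2.09% of all genes lower, 7.76% higher): Snrpg, Lsm4, Lsm3, Snrpf, Hnrnpa1, Snrpd2 and Snrpe. Limma-voom with the block called 0 of 64 (6 of all genes, 0.0488%), with 11 below an adjusted p of 0.1 (4.16% of all genes). Limma on log2(FPKM + 1) with the block, added after the data were seen, also called 0 (2 of all genes, 0.0163%), with 13 lower at an adjusted p under 0.1 (6.36% of all genes). The adjusted p of each of the 7 ran up to 1 over the fits, so these calls rest on the choice of tool and on the pairing.

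**Figure D1:**
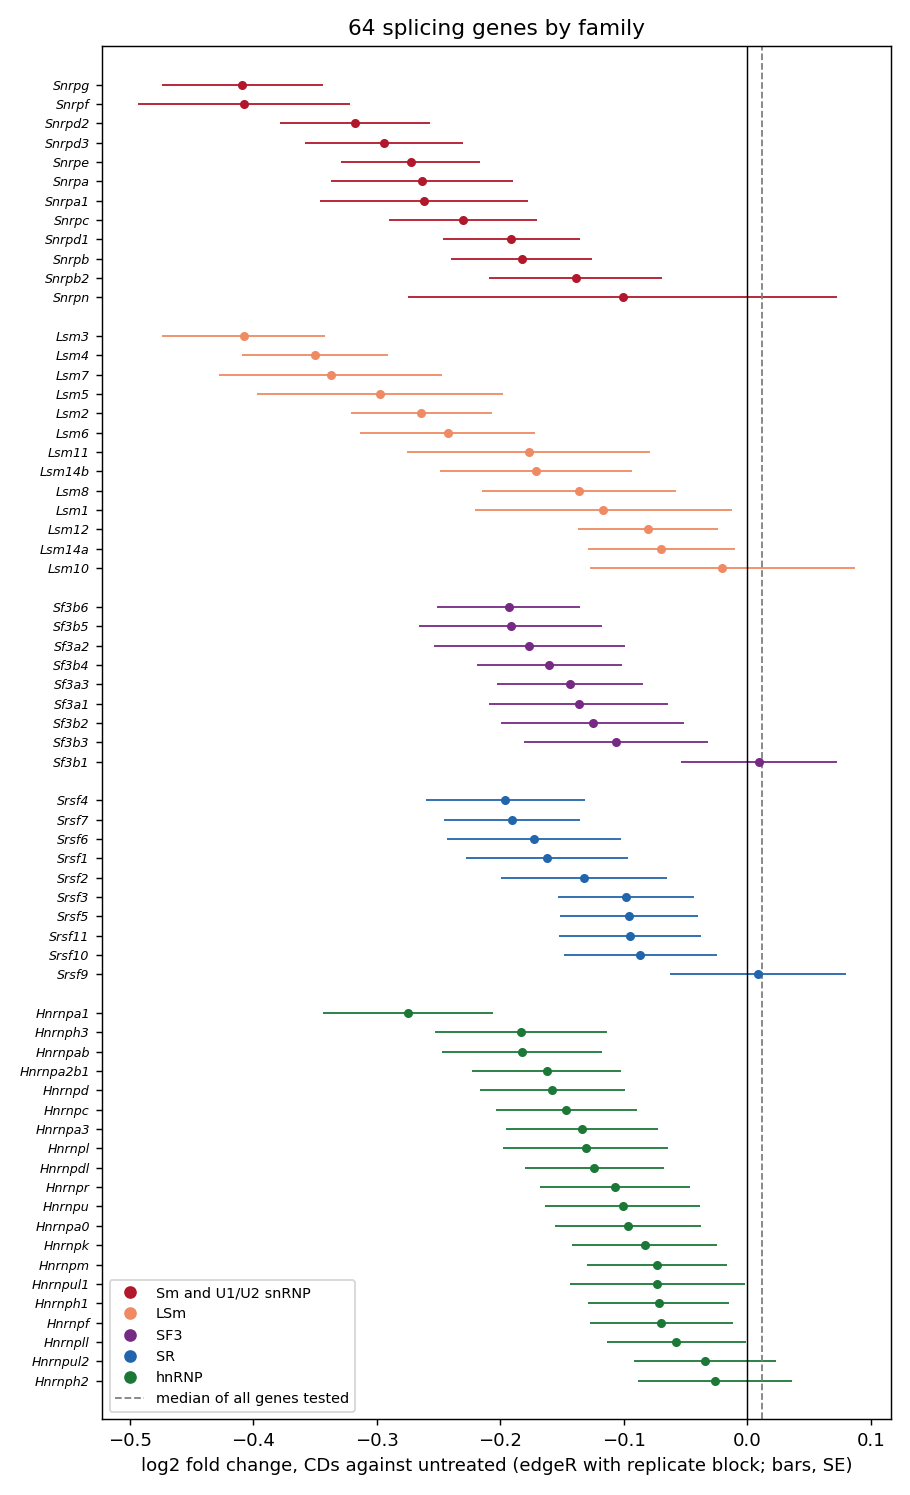
Log2 fold change of each of the 64 splicing genes, CDs against untreated, from edgeR with the replicate block (horizontal axis, log2; points, fitted values; bars, SE), grouped and coloured by family. Nearly all points lie left of 0 and of the dashed median of all genes tested (0.01), with Snrpg, Lsm3 and Snrpf farthest at -0.41 and only Sf3b1 and Srsf9 at 0.01.

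The pattern can be set beside the promoters of the genes. RefSeq's promoter table for GRCm38.p6 held 74 windows of 300 bases for 55 of the 64 genes, running from 250 bases before each annotated start to 50 after it. Below are stretches of 80 bases for the member with the lowest fitted fold change in each family among those with a stretch clear of annotated exons, and for the pair of genes above 0, Sf3b1 and Srsf9. They are written 5′ to 3′ on the gene's strand, and capitals mark matches, on either strand, to CCGGAA (ETS core), the CCAAT box or GGGCGG (GC box). Each stretch is a part of its window, which can hold further matches, such as CCGGAA in the windows of Lsm5, Srsf7 and Hnrnpab. No binding was measured here.
Snrpf (chr10:93589771-93589850, minus strand): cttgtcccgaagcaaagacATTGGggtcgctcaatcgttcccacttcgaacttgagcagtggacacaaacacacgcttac
Lsm5 (chr6:56704711-56704790, minus strand): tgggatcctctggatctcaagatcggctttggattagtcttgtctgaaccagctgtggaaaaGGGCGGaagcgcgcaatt
Sf3b6 (chr12:4817464-4817543, plus strand): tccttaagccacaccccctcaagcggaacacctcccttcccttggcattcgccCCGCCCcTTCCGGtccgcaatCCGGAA
Srsf7 (chr17:80207370-80207449, minus strand): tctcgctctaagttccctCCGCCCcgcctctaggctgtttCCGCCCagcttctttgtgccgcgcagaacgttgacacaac
Hnrnpab (chr11:51606882-51606961, minus strand): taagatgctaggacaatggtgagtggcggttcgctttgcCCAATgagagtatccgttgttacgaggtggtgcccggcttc
Sf3b1 (chr1:55027502-55027581, minus strand): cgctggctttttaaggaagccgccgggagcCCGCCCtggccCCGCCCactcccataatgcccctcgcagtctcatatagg
Srsf9 (chr5:115327083-115327162, plus strand): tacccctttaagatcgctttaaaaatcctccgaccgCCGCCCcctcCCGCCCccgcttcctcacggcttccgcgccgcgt

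Over the whole windows, GGGCGG (the GC box bound by Sp1-type factors, reverse complement CCGCCC) was present in 71.6% of the members' windows, 60.7% of those of all genes tested and 35.7% of all 32851 windows in the table. CCGGAA (the core bound by ETS factors, reverse complement TTCCGG) was present in 41.9%, 27.1% and 14.9%. CCAAT (reverse complement ATTGG) was found in 44.6%, 38.2% and 37.4%. The E-box CACGTG occurred in 9.46% of the members' windows and 9.89% of tested genes' windows, and TATAAA in 9.46% and 7.37%. The 17 windows of 12 ring genes held CCGGAA in 29.4% and CACGTG in 0. GGGCGG and CCGGAA can share 2 bases at their ends, and a match is a description of the letters alone.

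The Sm ring is the first of the complexes with low values. Its proteins SmB, SmD1, SmD2, SmD3, SmE, SmF and SmG are encoded by Snrpb, Snrpd1, Snrpd2, Snrpd3, Snrpe, Snrpf and Snrpg, and Snrpn encodes SmN, a relative of SmB best known from brain. All 8 were below 0, with a median log2 fold change of -0.28 both with and without the block, and the 7 other than Snrpn were lower in all 3 pairs. The grouping into rings and other complexes was made after the values were seen.

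Snrpg (chr6:86371540-86378902) measured 94.1, 90.1 and 53.4 CPM in untreated 1 to 3 and 69.8, 73.0 and 37.9 in the treated libraries. Each treated library was below its numbered partner, but CDs 1 and 2 were above untreated 3, so the groups overlap. The log2 fold change was -0.40 ± 0.34 (SE) without the block and -0.41 ± 0.07 with it, with an edgeR adjusted p of 0.0916 in the blocked fit. DESeq2 with the block gave 0.00466, the lowest adjusted p of the 64 genes.

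Snrpf (chr10:93583029-93589658), whose promoter is the first shown above, measured 119, 98.2 and 65.3 CPM untreated and 95.4, 80.9 and 42.2 CPM with CDs. The pairs differed by -0.32, -0.28 and -0.63 on the log2 scale, most in the third. The blocked log2 fold change was -0.41 ± 0.09 (SE), with an adjusted p of 0.0916 in edgeR and 0.0144 in DESeq2. Snrpf was named after its values were seen, as were Snrpd2, Snrpd3 and Lsm2.

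Snrpe, the ring gene with the highest level per length (mean 196 FPKM, a level scaled to transcript length and library size), gave 114, 113 and 74.4 CPM untreated and 93.0, 95.8 and 60.8 CPM with CDs. Its pairs differed by -0.29, -0.24 and -0.29 on the log2 scale, an even shift that was smaller than the distance between untreated 3 and the other untreated libraries. Blocked, the log2 fold change was -0.27 ± 0.06 (SE). Snrpd2 and Snrpd3 had blocked log2 fold changes of -0.32 ± 0.06 and -0.29 ± 0.06. The adjusted p in DESeq2 with the block was 0.0460 for Snrpe, 0.0281 for Snrpd2 and 0.0517 for Snrpd3.

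Snrpb and Snrpd1 differed less. Snrpb measured 251, 239 and 159 CPM untreated and 229, 205 and 138 CPM with CDs, a blocked log2 fold change of -0.18 ± 0.06 (SE), and without CDs 3 its unblocked value was 0.0060. Snrpd1 had a blocked value of -0.19 ± 0.06. Neither had an adjusted p under 0.1 in edgeR or DESeq2 with the block.

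Snrpn behaved unlike the rest of the ring. It measured 8.06, 3.68 and 0.879 CPM in untreated 1 to 3 and 6.92, 3.57 and 0.916 CPM in the treated libraries. Untreated 3 was thus lower than untreated 1 by 3.20 on the log2 scale (-3.20), whereas the pairs differed by -0.22, -0.04 and 0.06. Its levels followed the replicate number, and the difference with CDs was -0.15 ± 0.99 (SE) without the block. Snrpn overlaps Snurf in the annotation, and reads of the shared transcript may be split between them.

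**Figure D2:**
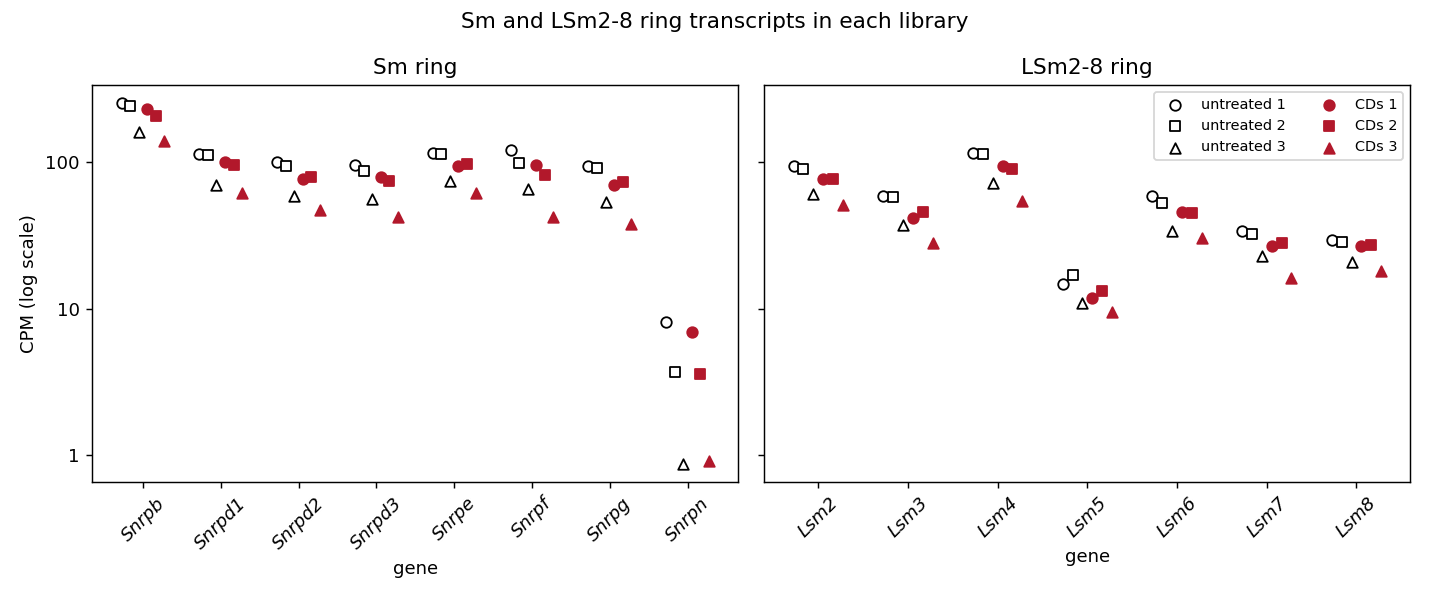
Level of each Sm ring gene (left) and LSm2-8 ring gene (right) in the 6 libraries, as CPM on a log scale. Open symbols are untreated and filled symbols CDs libraries, with shape giving the replicate number. For each gene other than Snrpn the filled symbol lies below the open one of the same shape, and within each group the triangles (number 3) lie lowest, as for Snrpg at 53.4 untreated and 37.9 with CDs.

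The proteins that are particular to U1 or U2 snRNP were also lower in all 3 pairs. Snrpc encodes the U1 protein that steadies its pairing with the 5′ splice site, and it measured 142, 134 and 103 CPM untreated and 114, 118 and 90.2 CPM with CDs. Its log2 fold change was -0.23 ± 0.18 (SE) without the block and -0.23 ± 0.06 with it, with a blocked edgeR adjusted p of 0.102. Snrpa, which binds a stem-loop of U1 RNA, and Snrpa1, the U2 protein A′, had blocked values of -0.26 ± 0.07 and -0.26 ± 0.08. Snrpb2, the U2 partner of Snrpa1, stood at -0.14 ± 0.07.

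Among the LSm genes, those of the LSm2-8 ring, which binds and protects the end of U6 RNA, had a lower median than the family as a whole (-0.18). All 7 ring genes were lower in all 3 pairs, with a median log2 fold change of -0.31 without the block and -0.30 with it. Lsm3 measured 58.1, 57.3 and 36.9 CPM untreated and 41.4, 45.2 and 28.1 CPM with CDs. Its first pair differed by -0.49 on the log2 scale, the second by -0.34 and the third by -0.39. Both fits gave -0.41, with an SE of 0.27 without the block and 0.07 with it, and the blocked adjusted p was 0.0916 in edgeR and 0.0114 in DESeq2.

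Lsm4 (chr8:70673231-70678752), the family's member with the highest level per length (109 FPKM), measured 115, 112 and 71.3 CPM untreated and 93.4, 88.6 and 53.5 CPM with CDs. Every pair was lower with CDs, yet the treated libraries 1 and 2 stayed above untreated 3. The blocked log2 fold change was -0.35 ± 0.06 (SE), with a DESeq2 adjusted p of 0.00978. Lsm5, the least abundant of the ring by counts, had 14.7, 17.0 and 10.8 CPM untreated and 11.7, 13.2 and 9.45 CPM with CDs, and a blocked value of -0.30 ± 0.10. Lsm7 stood at -0.34 ± 0.09, Lsm2 at -0.26 ± 0.06, Lsm6 at -0.24 ± 0.07 and Lsm8 at -0.14 ± 0.08 in the blocked fit.

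LSm8 is the subunit that sets the nuclear ring apart, and LSm1 takes its place in the cytoplasmic ring that promotes mRNA decay. Lsm1 measured 15.8, 12.9 and 10.6 CPM untreated and 13.3, 12.6 and 10.2 CPM with CDs, a blocked log2 fold change of -0.12 ± 0.10 (SE). Lsm10 and Lsm11 belong to the U7 snRNP, which processes histone mRNA rather than introns. They stood at -0.02 ± 0.11 and -0.18 ± 0.10. Lsm12, Lsm14a and Lsm14b, which are not parts of these rings, lay between -0.17 and -0.07, and Lsm14a, a protein of cytoplasmic mRNA granules, was lower in 2 of 3 pairs.

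Summed over the 15 genes of the Sm and LSm2-8 rings, the level was 1297, 1222 and 792 CPM in untreated 1 to 3 and 1070, 1029 and 637 CPM in the treated libraries. The mean was 1104 ± 272 (SD, n = 3) untreated and 912 ± 239 (SD, n = 3) with CDs. The ratio of treated to untreated was 0.825, 0.842 and 0.804 in the 3 pairs, a narrow range. The ratio of untreated 3 to untreated 1 was 0.611, a larger gap than any pair showed. Of the 15 ring genes 14 were lower in all 3 pairs, with a blocked median of -0.29, beside -0.13 for the 49 splicing genes outside the rings. Since the rings were set apart after their values were seen, these medians are a description.

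Markers of macrophages and granulocytes, other cells of fetal liver, also varied along the replicate numbers, in the opposite sense to the ring sums. The 12 macrophage markers took 0.0178% to 0.469% of counts in untreated libraries and 0.0424% to 0.611% with CDs, highest in number 3 of each group and higher with CDs in each pair. Of the 12, Timd4 was at 0 in at least 1 library and 10 passed the filter on low counts. The 9 granulocyte markers took 0.0261% to 0.211% untreated and 0.0375% to 0.222% with CDs, and none of them was at 0 in any library. Endothelial and hepatocyte markers were likewise higher with CDs in each pair and highest in number 3 of each group. They took at most 0.00857% and 0.0457% of counts, both in CDs 3. Megakaryocyte markers did not follow in number 3, with 0.00827% untreated and 0.00816% with CDs. The part of these markers in the levels of the splicing genes was not tested. In bulk samples, fewer cells of a type and less RNA per cell cannot be told apart.

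The SF3 genes lay nearer to 0 and split between their subunits. Of 9 genes 8 were below 0, with a median log2 fold change of -0.14, and 5 were lower in all 3 pairs. Family medians in the pairs were -0.03, -0.15 and -0.20. Sf3b6, which encodes p14, the protein that sits near the branch-point adenosine, measured 68.8, 68.5 and 53.9 CPM untreated and 58.4, 60.4 and 48.2 CPM with CDs. Its blocked log2 fold change was -0.19 ± 0.06 (SE), with an edgeR adjusted p of 0.112. Sf3b5, another small subunit, also stood at -0.19, and Sf3a3, a core subunit of SF3A, at -0.14 ± 0.06.

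Sf3b1 (chr1:54985169-55027501), the large scaffold of SF3B, did not share the direction. It measured 411, 403 and 340 CPM untreated and 435, 380 and 348 CPM with CDs, and its pairs differed by 0.08, -0.09 and 0.03 on the log2 scale. The log2 fold change was 0.01 ± 0.15 (SE) without the block and 0.0091 ± 0.06 with it, and its sign turned under DESeq2 (-0.00727) and under RLE size factors (-0.00723). Sf3a2, the family's highest gene per length, had 245, 217 and 180 CPM untreated and 239, 196 and 141 CPM with CDs, so the pair numbered 3 differed most. Without CDs 3 its unblocked value was 0.02, where with all libraries it was -0.16 ± 0.23.

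**Figure D3:**
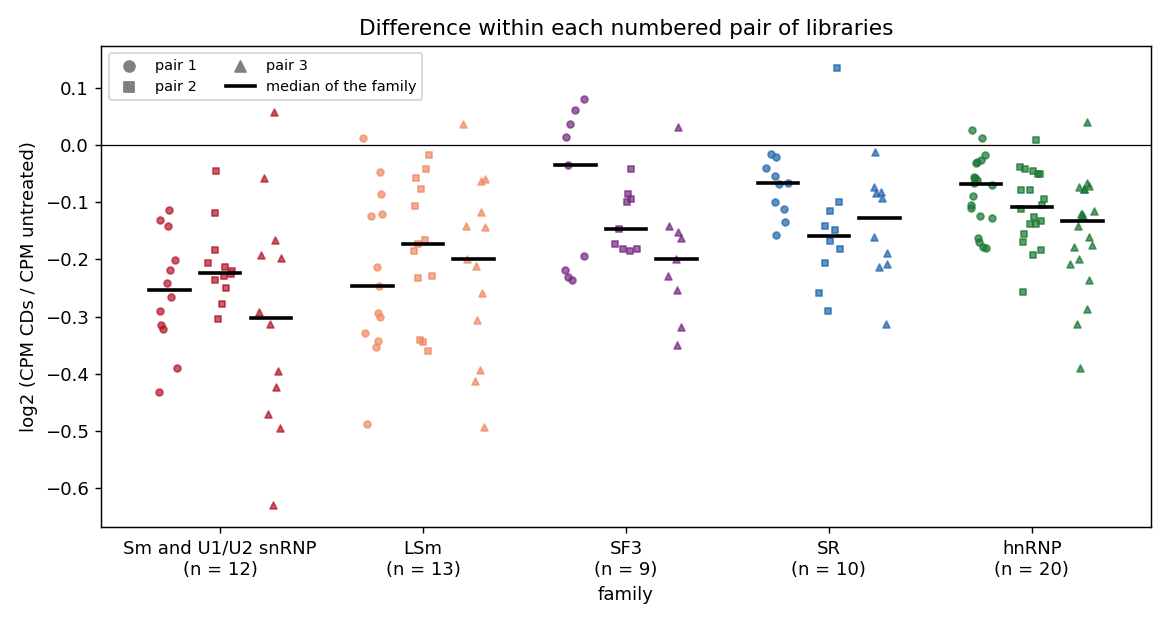
Log2 ratio of CDs to untreated CPM within each numbered pair of libraries, for the members of each family (points; shapes mark the pair) with the family median in each pair (black lines). The snRNP and LSm families sit lowest, with snRNP medians of -0.25, -0.22 and -0.30, and the SF3 median of pair 1 lies near 0 at -0.03.

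Among the SR genes 9 of 10 were lower in all 3 pairs, but the differences were small, with a median log2 fold change of -0.11 (-0.12 with the block) and pair medians of -0.07, -0.16 and -0.13. Srsf2 had the highest level per length in the family, 240.0 FPKM, and its protein binds exon enhancers and is another target of mutation in myelodysplasia. It measured 576, 585 and 493 CPM untreated and 570, 521 and 425 CPM with CDs. The blocked log2 fold change was -0.13 ± 0.07 (SE), with an edgeR adjusted p of 0.241. Srsf1, the founding SR protein, measured 609, 592 and 398 CPM untreated and 581, 495 and 356 CPM with CDs, at -0.16 ± 0.07 with the block and 0.01 unblocked without CDs 3. Srsf3, which also takes part in mRNA export, stood at -0.10 ± 0.06.

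Srsf4 and Srsf5 are the genes whose groups did not overlap. Srsf4 measured 175, 179 and 164 CPM untreated and 159, 162 and 132 CPM with CDs, and its lowest untreated library was only slightly above its highest treated one. Its log2 fold change was -0.19 ± 0.13 (SE) without the block and -0.20 ± 0.06 with it, with an edgeR adjusted p of 0.125. Srsf5 measured 278, 292 and 277 CPM untreated and 260, 270 and 264 CPM with CDs. Its untreated levels were close together, and the difference of -0.10 ± 0.06 was small. The untreated levels of both genes varied little, unlike those of the ring genes.

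Srsf6 and Srsf7 had blocked values of -0.17 ± 0.07 and -0.19 ± 0.06 (SE). Srsf9 was the other gene above 0. It measured 52.9, 49.7 and 43.1 CPM untreated and 52.2, 54.6 and 40.5 CPM with CDs, so it was higher with CDs in the second pair and lower in the other two. The log2 fold change was 0.01 ± 0.16 without the block, and it turned to -0.00407 under DESeq2. Srsf9 overlaps Gatc, with mean counts of 953 for Srsf9 and 740.1 for Gatc, and no step that marks strand is named in the labels, so reads of the overlap may be shared.

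The hnRNP genes had the highest levels and the smallest differences. All 20 were below 0, with a median log2 fold change of -0.10, and 17 were lower in all 3 pairs. Hnrnpa1 had the highest mean level per length of all 64 genes, 427 FPKM, ahead of Hnrnpa2b1 at 405 and Hnrnpk at 305. Its protein binds exon silencers and shuttles between nucleus and cytoplasm.

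Hnrnpa1 (chr15:103239943-103246698) measured 994, 888 and 563 CPM untreated and 878, 743 and 429 CPM with CDs. It was the hnRNP that lay lowest, with pairs at -0.18, -0.26 and -0.39 on the log2 scale. The log2 fold change was -0.25 ± 0.35 (SE) without the block and -0.28 ± 0.07 with it, with a blocked adjusted p of 0.0996 in edgeR and 0.0264 in DESeq2. Without CDs 3, which leaves untreated 3 with no partner, the unblocked value was -0.0079. Hnrnpa1 has many processed copies in the mouse genome, and how reads were shared with them is not given in the sources used here.

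Hnrnpd, which binds AU-rich elements of unstable mRNAs, measured 334, 332 and 270.0 CPM untreated and 295, 311 and 235 CPM with CDs, at -0.16 ± 0.06 (SE) with the block. Its relative Hnrnpdl stood at -0.12 ± 0.06. Hnrnpk, which binds C-rich RNA and restrains translation of Alox15 mRNA in immature red cells, measured 819, 768 and 619 CPM untreated and 781, 714 and 588 CPM with CDs. Its difference was -0.08 ± 0.06 with the block and 0.02 unblocked without CDs 3. Hnrnpll, the regulator of Ptprc splicing in lymphocytes, stood at -0.06 ± 0.06, and Hnrnph2, with -0.03 ± 0.06, was lower in 1 of 3 pairs.

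Other splicing genes were also mostly lower. From 8 lists of 130 genes, all tested, 114 were below 0, with a median log2 fold change of -0.13 (-0.14 with the block). In all 3 pairs 84 were lower and 9 higher, where 26.2% and 30.2% of all genes were. None had an adjusted p under 0.05 in edgeR with or without the block, and in the blocked fit 8 were lower and 5 higher at an adjusted p under 0.1, beside 3.13% and 5.17% of all genes. The 13 genes of snRNP assembly were all below 0, as were all 17 U1 and U2 auxiliary genes, all 19 tri-snRNP genes and all 8 genes of the exon junction complex. The 29 other splicing regulators were mixed, with 19 below 0.

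Smn1, whose protein loads Sm rings onto small nuclear RNAs, measured 44.5, 42.3 and 30.6 CPM untreated and 35.1, 34.5 and 24.4 CPM with CDs. Its blocked log2 fold change was -0.32 ± 0.07 (SE), with an adjusted p of 0.0916 in edgeR and 0.0717 in DESeq2. Pnn, an SR-related protein of nuclear speckles, stood at -0.30 ± 0.07, and DESeq2 with the block called it at 0.0326. Phf5a, a small partner of SF3B1, and Bcas2, a subunit of the Prp19 complex, were called there too, at 0.0344 and 0.0349. The latter pair was named after the values were seen. In that fit 3 of the 130 other splicing genes were called lower and 2 higher, beside 2.09% and 7.76% of all genes, so calls on the lower side were about as frequent as among all genes.

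U2af1, which reads the AG at the end of the intron, measured 115, 114 and 85.7 CPM untreated and 104, 104 and 67.7 CPM with CDs, at -0.21 ± 0.07 (SE) with the block. Zrsr2, its counterpart for minor introns, kept within 24.3 to 24.5 CPM untreated and 22.6 to 23.7 CPM with CDs. The large speckle protein gene Srrm2 stood at -0.13 ± 0.10 and Ptbp1, a repressor of many exons, at -0.15 ± 0.06. Some genes are named because they had the smallest p of their list in edgeR without the block. Of these, Syf2 stood at -0.16 ± 0.06 in the blocked fit, Cherp at -0.18 ± 0.06, Rbm8a at -0.20 ± 0.07 and Prpf38a at -0.20 ± 0.07. Rbm41, of the minor spliceosome, was on the higher side at 0.32 ± 0.11.

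The 5 genes on the higher side at a blocked edgeR adjusted p under 0.1 were Srpk2, Celf2, Mbnl2, Ptbp3 and Rbfox2. Srpk2, a kinase of SR proteins, stood at 0.41 ± 0.08 (SE) in that fit. Ptbp3, a relative of Ptbp1, measured 347, 353 and 396 CPM untreated and 419, 404 and 539 CPM with CDs, so its groups did not overlap, and its blocked value was 0.30 ± 0.07. Celf2, an RNA-binding regulator of exons, measured 8.52, 19.8 and 89.5 CPM in untreated 1 to 3 and 20.7, 47.5 and 143 CPM in the treated libraries. It was higher with CDs in each pair and ran along the replicate numbers in the opposite sense to the ring genes. Its log2 fold change was 0.84 ± 1.09 (SE) without the block and 1.04 ± 0.14 with it, with an adjusted p of 0.0916 in edgeR and 1.15e-06 in DESeq2. Mbnl2 went the same way (0.36 ± 0.07, DESeq2 0.0468), while its relative Mbnl1, a muscleblind gene known from late erythroid cells, stood at 0.08 ± 0.07. Rbfox2 was higher in every treated library, but at 0.258 to 0.537 CPM untreated and 0.855 to 1.54 CPM with CDs it was close to undetected. Srpk2, Ptbp3, Celf2 and Mbnl2 were named after their values were seen. The macrophage and granulocyte shares given above were, like Celf2, lowest in untreated 1 and highest in CDs 3. The first principal component of all genes tested also ran from untreated 1 (-87.1) to CDs 3 (95.7). A link between these shares and Celf2 was not tested.

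Over the 64 genes together, shorter transcripts had the lower values, a relation that did not hold in every family. Transcript length, taken as the value implied by each gene's count and FPKM, had a median of 680 bases for the Sm ring, 731 for the LSm2-8 ring and 2111 for all 64 genes. Across the 64 genes, length on a log2 scale and the blocked log2 fold change had a Pearson correlation of 0.63 and a Spearman correlation of 0.54. The correlations were 0.72 and 0.73 within the Sm and U1/U2 snRNP family (n = 12). Within LSm they were 0.47 and 0.54 (n = 13), and within SF3 0.74 and 0.87 (n = 9). Within the SR family the sign was the opposite (-0.62 and -0.22, n = 10), and within the hnRNP family the values were 0.23 and 0.20 (n = 20). Among the 49 outside the rings they were 0.23 and 0.25, and over 10843 tested genes with a length they were 0.16 and 0.25. All points share the same 6 libraries, and genes are not independent replicates, so these correlations are a description. The part of length in the lower values of the ring genes was not tested.

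**Figure D4:**
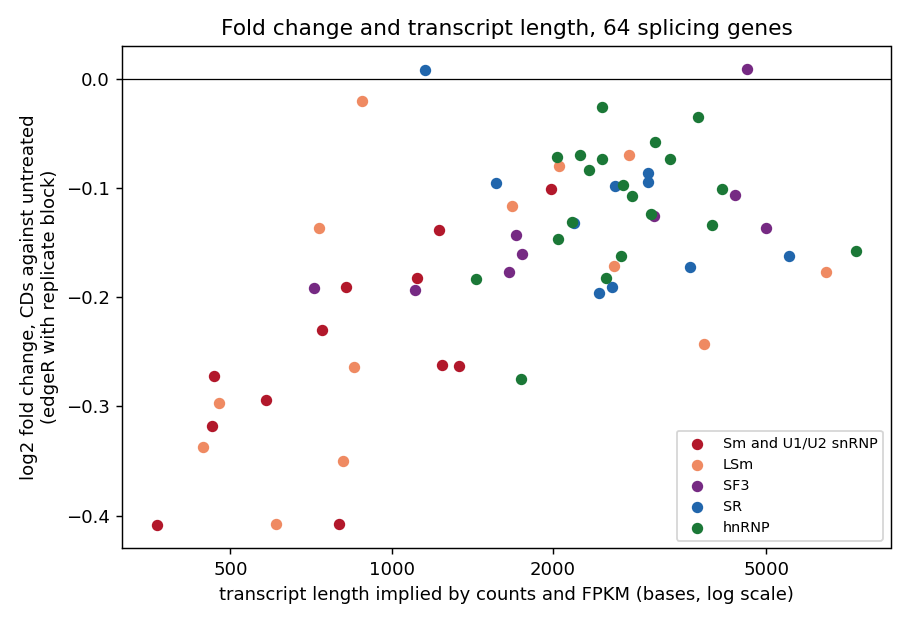
Transcript length implied by counts and FPKM (horizontal axis, bases, log scale) against the blocked edgeR log2 fold change (vertical axis) for the 64 splicing genes, coloured by family. Short snRNP and LSm transcripts, with ring medians of 680 and 731 bases, fill the lower left, and the longer SR and hnRNP transcripts lie nearer to 0.

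Counting limits touch some of these genes. In the annotation 13 of 64 overlap another gene of the table, among them Sf3b3 with Cog4 and Srsf9 with Gatc. Expected counts were not whole numbers for 22 of the 64, whose levels are thus estimates. Counts and FPKM agreed closely over libraries for nearly all members, with a median deviation of 0.0026 on the log2 scale. Lsm1 (0.10) and Lsm12 (0.06) lay above the 95th percentile of all genes (0.05), so their differences are less certain than their counts imply.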

How the data were processed

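Polyadenylated RNA was sequenced in 6 libraries, 3 untreated and 3 with CDs. Per the submitters' processing notes, RSEM 1.2.12, HISAT2 2.0.4, DESeq2 1.4.5 and Bowtie2 2.2.5 were used with build GRCm38.p6, in roles that are not given in the sources used here. The authors deposited expected counts per gene, of which 30.1% of values were not whole, and these were rounded before testing. The authors also deposited FPKM, a unit worked out here from the values. Totals ran from 17695997 to 20066581 counts per library, and the smallest chi-square per degree of freedom between libraries of a group was 11.2, so none was a copy of another.

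In R 4.3.3, filterByExpr left 12283 genes with 99.9% of counts. After TMM scaling, edgeR 4.0.16's robust quasi-likelihood test compared the groups with no other term. Benjamini-Hochberg adjustment ran over all these genes, and calls needed an adjusted p under 0.05. CPM use the TMM-scaled totals. The SE of an edgeR log2 fold change is its size divided by the square root of F, the statistic of the test. Alternatives were a replicate block, DESeq2 1.42.0, limma-voom (limma 3.58.1), RLE scaling, no filter, each library or numbered pair left out, and limma on log2(FPKM + 1) or log2(FPKM + 0.1). That on log2(FPKM + 1) with the block was added after the data were seen. The edgeR fit was tested on simulated data with and without the block. Differences between replicate numbers and the spread of the blocked fit were built into these data, so they cannot decide if the block suits the real libraries. The blocked fit recovered 91% of planted 2-fold changes and 54% of 1.5-fold changes, and the unblocked fit 0% of either. Smaller changes were not planted.

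Same-numbered libraries had deviations that correlated at 0.91, 0.34 and 0.94, above the limit of 0.1, hence the pairing. No correlations of differently numbered libraries were set beside them. The biological coefficient of variation was 0.485 without the block and 0.112 with it. The members and lists were chosen with earlier results of these data known. Members named are, per family, the highest per length, up to 2 with the smallest p in each direction and fixed genes. From each other list the gene with the smallest p is named. For these choices p is that of edgeR without the block. The ring groups, promoter motifs and the length comparison were chosen after values were seen. Promoter stretches are the 80 bases nearest to the start that touch no GENCODE M21 exon and no RefSeq extent of a member, for genes with 1 window.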

Additional observations from a re-analysis of the deposited data

How the results depend on the processing

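The count of splicing genes called was 0 in edgeR without the block, 0 in edgeR with the replicate block and in each of the other fits except DESeq2 with the replicate block, which called 7. Its calls were Snrpg (-0.43), Snrpf (-0.43), Lsm3 (-0.43), Lsm4 (-0.37), Snrpd2 (-0.34), Snrpe (-0.29) and Hnrnpa1 (-0.29). Medians moved most when 1 library was left out, over -0.270 to 0.00454 for all 64 genes, -0.462 to -0.0673 for the snRNP family, -0.420 to -0.0875 for LSm, -0.267 to 0.0230 for SF3, -0.222 to -0.0162 for SR, -0.217 to 0.0195 for hnRNP and -0.244 to -0.00987 for the other splicing lists. The highest medians came without CDs 3, or for LSm without CDs 3 and untreated 1 alike. Genes without overlap of the groups numbered 2 to 43, with 43 reached without untreated 3. Smaller groups separate more easily, and the share of all genes was not worked out for these reduced sets, so the 43 cannot be judged. Genes with 1 direction in all remaining pairs numbered 55 to 60 of 64. Fewer pairs are easier to agree in, and here too the share of all genes was not worked out.

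Without both libraries numbered 2 the median of the 64 was -0.18 and that of the snRNP family -0.28, which DESeq2 with the replicate block also gave (-0.28). Without both numbered 1 the hnRNP median was -0.13. Without both numbered 3 the groups of 43 genes did not overlap, again with no share of all genes to set beside it. Sf3b1 turned negative in DESeq2 (-0.00727), DESeq2 with the block (-0.00814), RLE scaling (-0.00723), no filter (-0.00418), and without both numbered 1 (-0.0357) or 3 (-0.0209), and ran from -0.0877 to 0.0816 with 1 library left out. Srsf9 turned negative in DESeq2 (-0.00407), DESeq2 with the block (-0.00903), RLE scaling (-0.00397) and without both numbered 2 (-0.0773), and ran from -0.0886 to 0.136. With 1 library left out, unblocked values crossed 0 for Sf3a2 (-0.349 to 0.0230), Srsf1 (-0.332 to 0.0125), Hnrnpk (-0.194 to 0.0234), Hnrnpll (-0.215 to 0.103), Snrpb (-0.361 to 0.00601), Snrpn (-0.912 to 0.733), Lsm14a (-0.149 to 0.00462), Ptbp1 (-0.291 to 0.0389), Mbnl1 (-0.0697 to 0.193) and Srrm2 (-0.259 to 0.0110). The cause was not tested.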
